A study of Mus musculus with 6 samples.

Results

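Expression of 10 genes of granulosa cells was followed in mouse ovarian surface epithelium cells sorted by aldehyde dehydrogenase activity: Inha, Inhba, Inhbb, Fst, Amh, Amhr2, Foxl2, Nr5a2, Hsd17b1 and Kitl. They were taken as every probe set that the platform annotation gives to exactly 1 of these symbols, which made 22 of the 45037 probe sets that are no controls. Of the 22, 19 passed a filter that removed the dimmest 40% of probe sets by mean log2 signal, a level of 2.73, and each of the 10 genes kept at least 1. The cells were primary cells freed from the ovaries of virgin FVB/N females aged 8 weeks, kept in culture for 24 hours, treated with ALDEFLUOR, a dye that becomes bright where aldehyde dehydrogenases (ALDH) are active, and sorted by flow cytometry. Each of 3 independent pools of 10 mice gave 1 Affymetrix Mouse Genome 430 2.0 array of ALDH-positive and 1 of ALDH-negative cells, so that the groups hold 3 arrays each. Both fractions share strain, sex, age, culture and amplification of the RNA, and neither is a genetic model. The replicate number of the labels is the pool number here.

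Granulosa cells surround the oocyte in the follicle and lie beneath the surface epithelium. They secrete inhibins, which join an alpha subunit (Inha) to a beta subunit (Inhba or Inhbb), and activins, which join beta subunits to each other; activins raise and inhibins lower the release of follicle-stimulating hormone from the pituitary. Follistatin (Fst) binds activins, anti-Müllerian hormone (Amh) restrains early follicles through the receptor Amhr2, the transcription factors Foxl2 and Nr5a2 maintain granulosa identity and steroid synthesis, Hsd17b1 makes estradiol from estrone, and Kitl is the ligand by which granulosa cells reach the receptor Kit on oocytes.

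Promoter windows from RefSeq are shown for Inhbb and Nr5a2, the members with the largest difference in each direction once replicate 2 is left out. The table holds 8 windows for 7 of the 10 genes, and 3 of the windows, those of Inhbb, Foxl2 and 1 of Nr5a2, end exactly where the gene model starts. Each run below is the 250 bases before that start, read 5′ to 3′ on the gene's strand, in build GRCm38.p6. The Inhbb window is the minus strand of chr1:119422249-119422498 and the Nr5a2 window the minus strand of chr1:136960449-136960698. Capitals mark matches to GATAAG, a form of the sites of GATA factors, on either strand (read as CTTATC where the match is on the other strand). Other forms of these sites, such as GATA followed by other letters, were not searched and are not marked.
Inhbb: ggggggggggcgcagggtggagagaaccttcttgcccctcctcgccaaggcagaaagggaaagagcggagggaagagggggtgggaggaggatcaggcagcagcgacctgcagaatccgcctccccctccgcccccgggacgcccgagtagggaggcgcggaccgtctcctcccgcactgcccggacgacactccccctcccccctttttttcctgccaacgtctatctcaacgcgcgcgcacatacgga
Nr5a2: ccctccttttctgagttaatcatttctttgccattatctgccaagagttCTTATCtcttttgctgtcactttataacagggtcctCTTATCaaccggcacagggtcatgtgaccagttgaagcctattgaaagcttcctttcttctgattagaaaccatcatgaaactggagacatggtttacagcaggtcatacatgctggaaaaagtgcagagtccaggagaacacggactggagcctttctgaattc
The Nr5a2 window holds 2 matches, which begin 201 and 165 bases before the start, and is 43.2% G or C. The Inhbb window holds none and is 68% G or C. Among 32817 windows of this length in the table, 6.55% hold GATAAG on either strand. Letters of the site that Nr5a2 itself binds, CAAGGTCA on either strand, are in 1.33% of the windows and in neither of the windows printed here. A match describes the letters only.

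One array was unlike the rest, and the differences of the members and lists are given with and without its pool. The ALDH-negative array of replicate 2 had a correlation of 0.558 to 0.679 with the others across probe sets, against 0.850 to 0.974 among the other 5. On that array the 3′ control probe set of Actb (beta-actin) read 5.03, against 9.56 to 11.04 elsewhere. It was the lowest array for 33.2% of all tested genes and for 4 of the 10 members, Inha, Inhba, Amhr2 and Nr5a2. In bulk RNA of sorted cells, fewer cells of a type and less RNA per cell cannot be told apart. The number of arrays limits the precision of every difference. Pool 3 also stood out by a control, the 3′ minus 5′ difference of Gapdh. This was 3.59 on its ALDH-negative and 5.30 on its ALDH-positive array. On the ALDH-negative array of pool 2 it was 2.15, and on the others 0.90 to 1.14. Every value without replicate 2 rests on pools 1 and 3, and the part of this control in those values was not tested.

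None of the 10 genes passed the test between the sorted fractions. limma with the pool as a block, adjusted by Benjamini-Hochberg over all 27022 tested probe sets, called 0 of the 19 member probe sets higher and 0 lower in ALDH-positive cells, and 0 (0%) of all probe sets in either direction. At an unadjusted p under 0.05 it passed 0 of the 19, against 2.04% of all probe sets higher and 0.403% lower. Without replicate 2 it again called 0 of the 19 and 0 (0%) of all after adjustment. At an unadjusted p under 0.05 it then passed 2 of the 19 in the lower direction, both of Nr5a2, against 2.27% of all probe sets, and 0 in the higher direction, against 2.29%. In no member gene did the 3 ALDH-positive arrays lie wholly above or wholly below the 3 ALDH-negative ones (0 of 10 each way, against 3.55% of all tested genes above and 3.32% below). With estimated array weights, an alternative in which the arrays of pool 3 carried a weight of 4.87 each, those of pool 1 a weight of 1.30 and those of pool 2 a weight of 0.158, limma called 2 of the 19 higher (1 set of Inhbb and 1 of Amhr2), against 5.47% of all probe sets, and 2 lower (both of Nr5a2), against 5.46%. Pool 3, which carried the largest weight, also had the largest 3′ minus 5′ difference of Gapdh. The intervals given below show how large a difference the pools still allow.

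**Figure D1:**
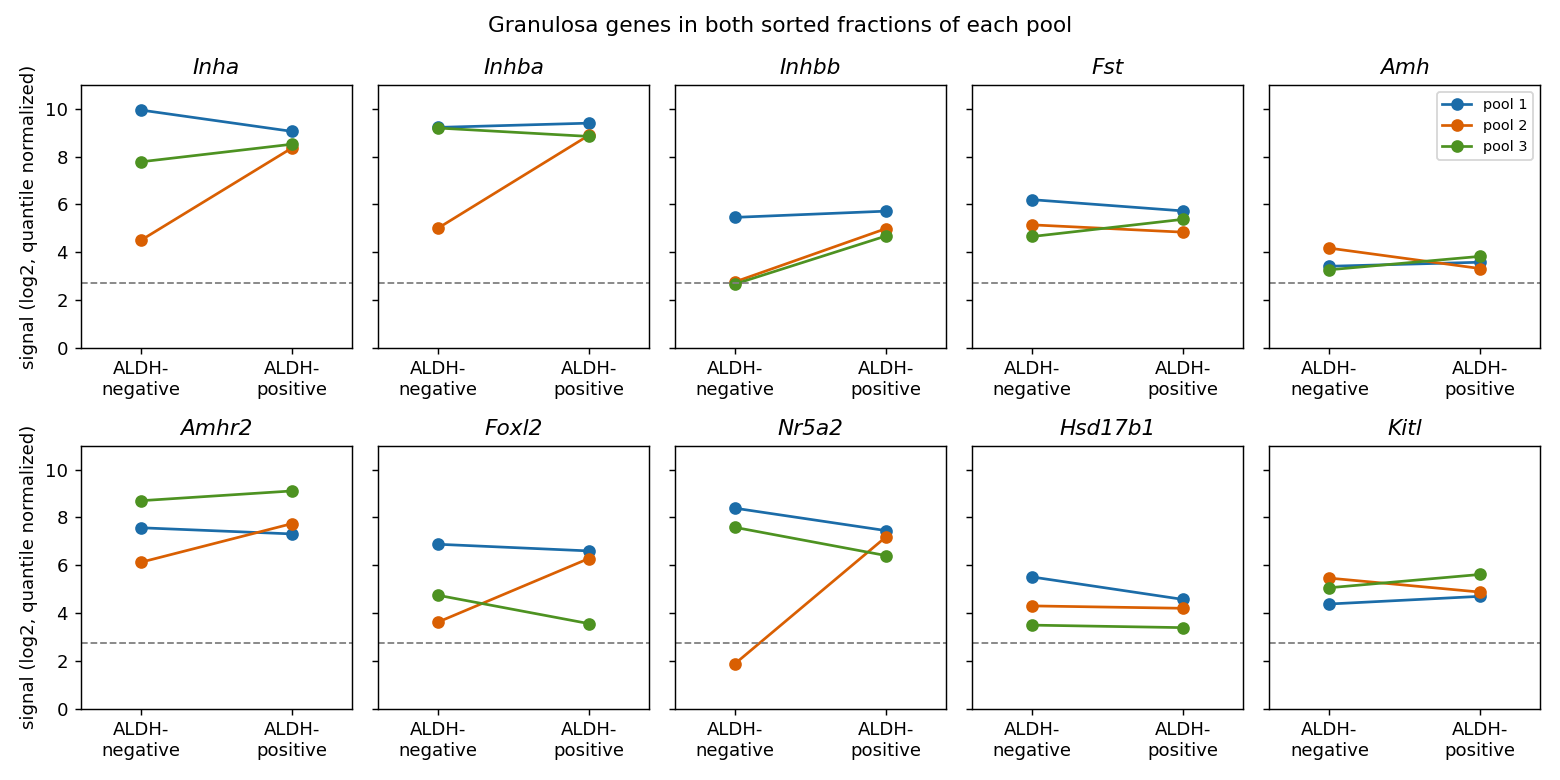
Log2 signal (vertical axis, quantile normalized) of the 10 genes in ALDH-negative and ALDH-positive cells, 1 line per pool, with the filter level of 2.73 as a dashed line. Inhba lies between 8.85 and 9.40 on 5 arrays and at 5.01 on the ALDH-negative array of pool 2.

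Among the ligand subunits, Inha was bright in both fractions. Its ALDH-negative arrays read 9.95, 4.50 and 7.78 in pools 1, 2 and 3, and its ALDH-positive arrays 9.06, 8.36 and 8.52. The ALDH-negative arrays thus held both the highest and the lowest values, and the fractions overlapped. Its difference, ALDH-positive minus ALDH-negative, was 1.23 (limma SE 0.96, 95% confidence interval -1.01 to 3.47, n = 3 pools, adjusted p = 0.895). Without replicate 2 the difference was -0.08 (interval -1.40 to 1.24, n = 2 pools), with -0.89 in pool 1 and 0.73 in pool 3. That sign turned in the values as deposited (0.04) and with centred medians (0.07).

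Inhba, the beta A subunit of activin A and inhibin A, was bright and even outside the array that stood apart. It stood at 9.22, 5.01 and 9.20 on the ALDH-negative arrays of the pools and at 9.40, 8.89 and 8.85 on the ALDH-positive ones. The 5 other arrays span 8.85 to 9.40 with no order by fraction. The difference was 1.24 (SE 0.94, interval -0.95 to 3.42, adjusted p = 0.895), with 3.88 in pool 2. Pools 1 and 3 gave 0.18 and -0.35, with a mean of -0.09 (interval -1.12 to 0.94). A second probe set of Inhba stayed between 1.76 and 2.47 on the 6 arrays, below the filter level, and was not tested.

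Inhbb, the beta B subunit, was the member that lay higher in ALDH-positive cells in each pool. ALDH-negative cells read 5.46, 2.76 and 2.67 in pools 1 to 3 and ALDH-positive cells 5.72, 4.99 and 4.68. The fractions overlapped because the ALDH-negative array of pool 1 lay above the ALDH-positive arrays of pools 2 and 3. The difference was 1.50, or 2.82-fold (SE 0.71, interval -0.16 to 3.15, limma adjusted p = 0.895), with 0.26, 2.22 and 2.01 in the pools. It was 1.13 without replicate 2 (interval -0.23 to 2.50, adjusted p = 0.909). A direction of higher in all 3 pools was shared by 11.3% of all tested genes. With arrays centred on their medians in place of quantile normalization the pool 1 difference of Inhbb was -0.03. With array weights, which were largest for pool 3, the difference was 1.65 (limma adjusted p = 0.0140). Under these weights 5.47% of all probe sets were called higher. The ALDH-negative arrays of pools 2 and 3 lie at the filter level, so this fold is against values near the background. The dimmer probe set of Inhbb, not tested, differed by 0.41, -0.14 and 1.06 in the pools.

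Follistatin, the antagonist, stood at 6.20, 5.15 and 4.66 on the ALDH-negative arrays and at 5.73, 4.84 and 5.38 on the ALDH-positive ones. Its difference of -0.02 (SE 0.66, interval -1.56 to 1.52) and the value without replicate 2 of 0.12 (interval -1.05 to 1.30) were small beside the spread between pools. The sign was positive in the values as deposited (0.16) and with centred medians (0.33). A second tested probe set of Fst differed by -1.18 in pool 1 and by 1.50 in pool 3, with a mean of 0.31 (SE 0.75), or 0.16 without replicate 2.

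Amh itself was dim. The only probe set of Amh gave 3.41, 4.17 and 3.27 for the ALDH-negative arrays and 3.58, 3.32 and 3.83 for the ALDH-positive ones, a little above the filter level on each array. The highest of these values came from the ALDH-negative array of pool 2, the one that stood apart. The difference was -0.04 (SE 0.67, interval -1.60 to 1.52), and 0.36 without replicate 2 (interval -0.65 to 1.38). It was 0.07 with centred medians.

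Its receptor Amhr2 was read by 3 tested probe sets, which disagreed on pool 3. The brightest, 1457021_x_at, gave 7.57, 6.12 and 8.70 for the ALDH-negative arrays and 7.31, 7.74 and 9.11 for the ALDH-positive ones. Both arrays of pool 3 were the highest on it. Its difference was 0.59 (SE 0.69, interval -1.03 to 2.20), and 0.07 without replicate 2 (interval -0.98 to 1.13). A second set, 1427989_at, read 6.59, 6.06 and 4.89, and 6.51, 6.17 and 5.15, so that on it both arrays of pool 3 were the lowest; the difference was 0.09 (SE 0.63), and 0.09 without replicate 2. The third, 1438967_x_at, differed by 1.93 (SE 0.93, limma adjusted p = 0.895), with 4.30 in pool 2, and by 0.74 without replicate 2. With array weights, which were largest for pool 3, 1438967_x_at passed the threshold (1.39, limma adjusted p = 0.0446), and the other 2 did not (0.30 and 0.19). In Affymetrix names the ending x marks sets with probes that may match other transcripts, so the levels of these sets belong to Amhr2 with less certainty.

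The forkhead factor Foxl2 varied between pools. ALDH-negative cells read 6.88, 3.62 and 4.74 and ALDH-positive cells 6.60, 6.28 and 3.56. Pool 1 was the highest in both fractions, the lowest was pool 2 among ALDH-negative and pool 3 among ALDH-positive arrays, and the fractions overlapped. The difference was 0.40 (SE 0.87, interval -1.64 to 2.44), and -0.73 without replicate 2 (interval -1.83 to 0.37), with -0.28 in pool 1 and -1.18 in pool 3. A second probe set of Foxl2, between 1.06 and 2.56, was below the filter.

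Nr5a2, the nuclear receptor known as LRH-1, was lower in ALDH-positive cells of pools 1 and 3 on each of its 4 probe sets. On the brightest the ALDH-negative arrays read 8.38, 1.89 and 7.58, and the ALDH-positive arrays 7.45, 7.18 and 6.40. The value of 1.89 on the array that stood apart is below the filter level, and the mean difference over 3 pools was 1.06 (SE 1.27, interval -1.90 to 4.02, limma adjusted p = 0.895). Without replicate 2 the difference was -1.06 (SE 0.40, interval -2.06 to -0.06, unadjusted p = 0.0416, limma adjusted p = 0.909). The other 3 sets gave -1.97, -1.30 and -1.01 without replicate 2, and all 4 measure the same gene in the same RNA. Their pool 3 differences spread from -3.48 to -1.18, against -0.94 to -0.43 in pool 1. The values of -3.48 and -1.97 belong to the set 1420410_at, whose ALDH-positive array of pool 3, at 2.48, lay below the filter level, so their size rests on a value near background. With array weights 2 of the 4 sets passed the threshold. These were 1420410_at (-2.67, limma adjusted p = 0.00483) and 1449706_s_at (-1.72, limma adjusted p = 0.0148). The brightest did not pass (-0.97, limma adjusted p = 0.182). The weights were 4.87 for pool 3, 1.30 for pool 1 and 0.158 for pool 2, so these values rest mostly on pool 3. For 1420410_at that includes the ALDH-positive value near background. Lower in both pool 1 and pool 3 were 3 of 10 member genes (Foxl2, Nr5a2 and Hsd17b1), against 25.7% of all tested genes. Higher in both were 3 of 10 (Inhbb, Amh and Kitl), against 27.8%. Nr5a1, the related receptor SF-1, differed by -1.11 without replicate 2 (SE 0.42, limma adjusted p = 0.909) and by -0.50 with it.

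Hsd17b1, read by 1 probe set, stood at 5.51, 4.30 and 3.49 on the ALDH-negative arrays and at 4.57, 4.20 and 3.39 on the ALDH-positive ones. In both fractions pool 1 was the highest and pool 3 the lowest, and the fractions overlapped. The difference was -0.38 (SE 0.65, interval -1.89 to 1.13), and -0.52 without replicate 2 (interval -1.61 to 0.57). Its pool differences of -0.94, -0.10 and -0.11 made it the only member lower in all 3 pools, against 11.4% of all tested genes. In pool 2 that sign turned in the values as deposited (0.14) and with centred medians (0.56).

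Kitl, with 4 tested probe sets, had no common direction. On the brightest the ALDH-negative arrays read 4.38, 5.46 and 5.06, and the ALDH-positive arrays 4.70, 4.87 and 5.61. The difference was 0.10 (SE 0.66, interval -1.44 to 1.63), and 0.44 without replicate 2 (interval -0.56 to 1.44). Without replicate 2 the other sets gave 0.03, -0.30 and -0.09. In pool 1 all 4 sets were higher in ALDH-positive cells, by 0.30 to 0.58, while in pool 3 only the brightest was.

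**Figure D2:**
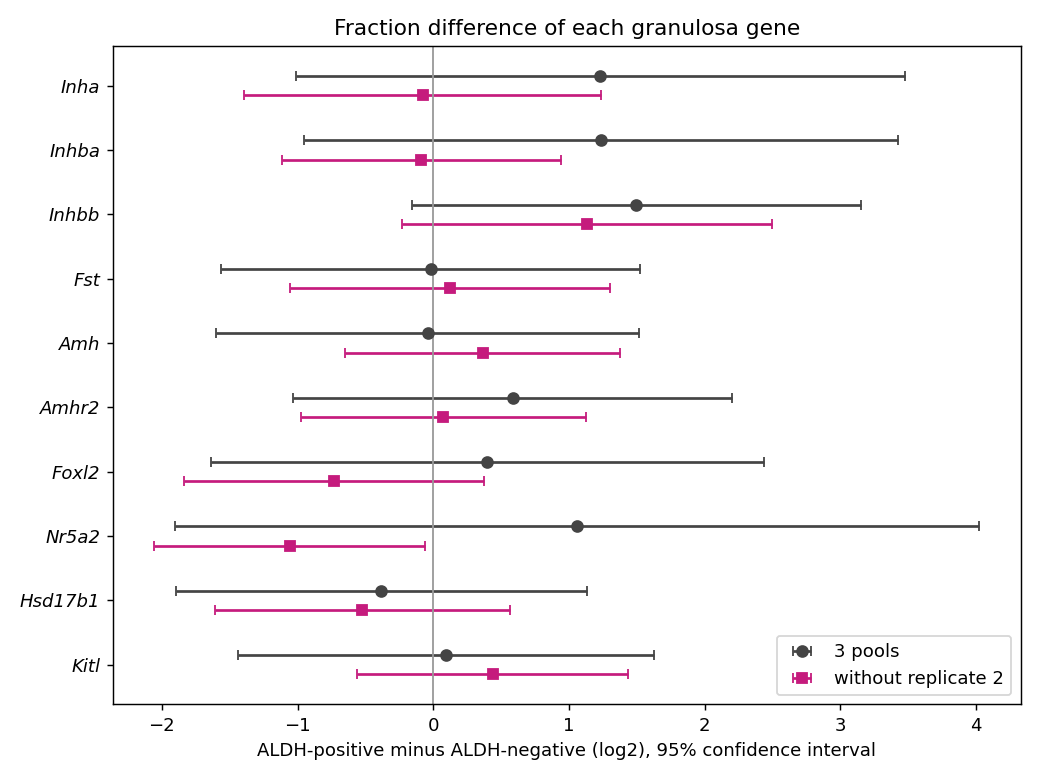
Difference between fractions (horizontal axis, log2, ALDH-positive minus ALDH-negative) with its 95% confidence interval from limma, over 3 pools (circles) and without replicate 2 (squares). Of the 20 intervals, the one that does not cross 0 is that of Nr5a2 without replicate 2, from -2.06 to -0.06.

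**Figure D3:**
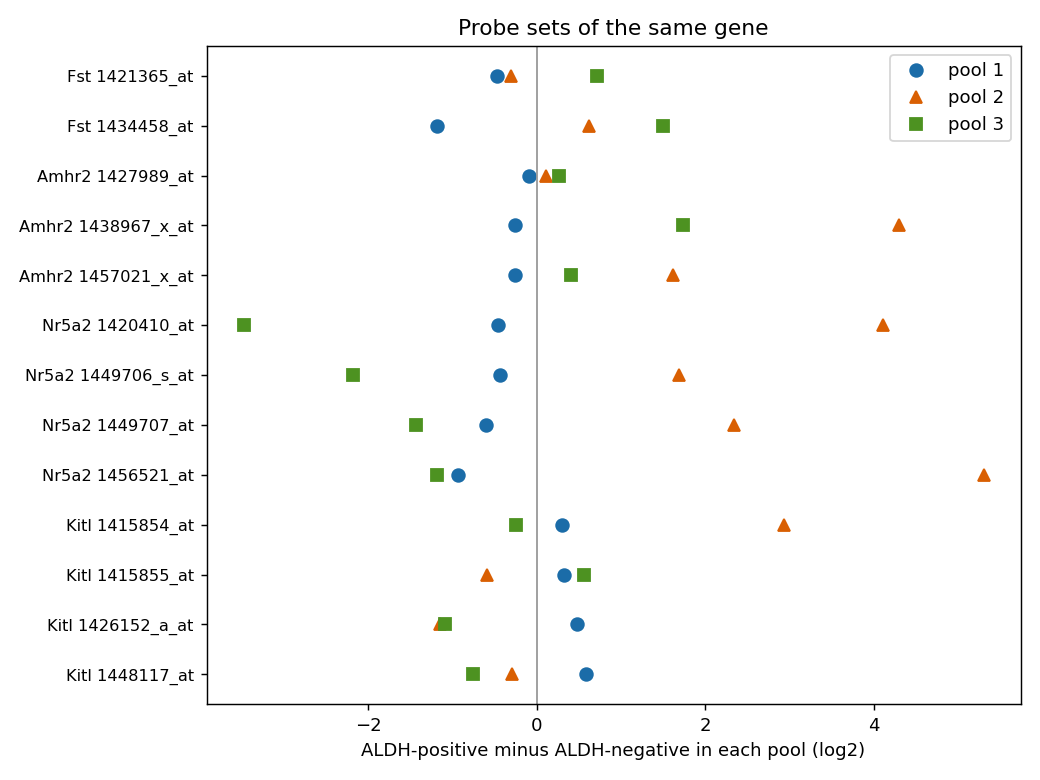
Difference in each pool (horizontal axis, log2) for every tested probe set of Fst, Amhr2, Nr5a2 and Kitl. The 4 sets of Nr5a2 lie left of 0 in pools 1 and 3 and right of 0 in pool 2, where they reach 5.30.

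Over the 10 genes the median difference was 0.49, against -0.08 over all tested genes, with -0.27, 1.92 and 0.48 in pools 1 to 3. Of the 10, 7 were higher and 3 lower in the mean. Without replicate 2 the median was -0.0016, against 0.04 over all tested genes, with 5 higher and 5 lower. Of the 10, 6 were higher in ALDH-positive cells of pool 2, as were 47.3% of all tested genes. For the counts by mean, with and without replicate 2, the shares of all tested genes are not given here. Those counts therefore only describe the members.

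Pool 3 read lower than pool 1 for most of these genes. By their brightest probe sets, Inha, Inhba, Inhbb, Fst, Foxl2, Nr5a2 and Hsd17b1 were lower in pool 3 than in pool 1 in both fractions. These were 7 of the 10, against 28.9% of all tested genes. Another tested set of Fst gave -1.53 in ALDH-negative but 1.14 in ALDH-positive cells, and the Nr5a2 set 1449706_s_at gave 0.28 in ALDH-negative cells. Amhr2 and Kitl were higher in both on their brightest probe sets, though not on every other set. Amh was lower in ALDH-negative and higher in ALDH-positive cells. Foxl2 in pool 3 minus pool 1 was -2.13 in the ALDH-negative fraction and -3.04 in the ALDH-positive one. For Hsd17b1 the differences were -2.01 and -1.18, for Inhbb -2.79 and -1.04, and for Inha -2.17 and -0.54. Inhba differed by only -0.03 and -0.55. This contrast was chosen after the values were seen and rests on 1 array per pool and fraction, so it has no test. The 5′ control probe set of Gapdh also differed between these pools, at 10.30 and 10.24 in pool 1 and 6.63 and 5.20 in pool 3, and its part in the pool difference was not tested.

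**Figure D4:**
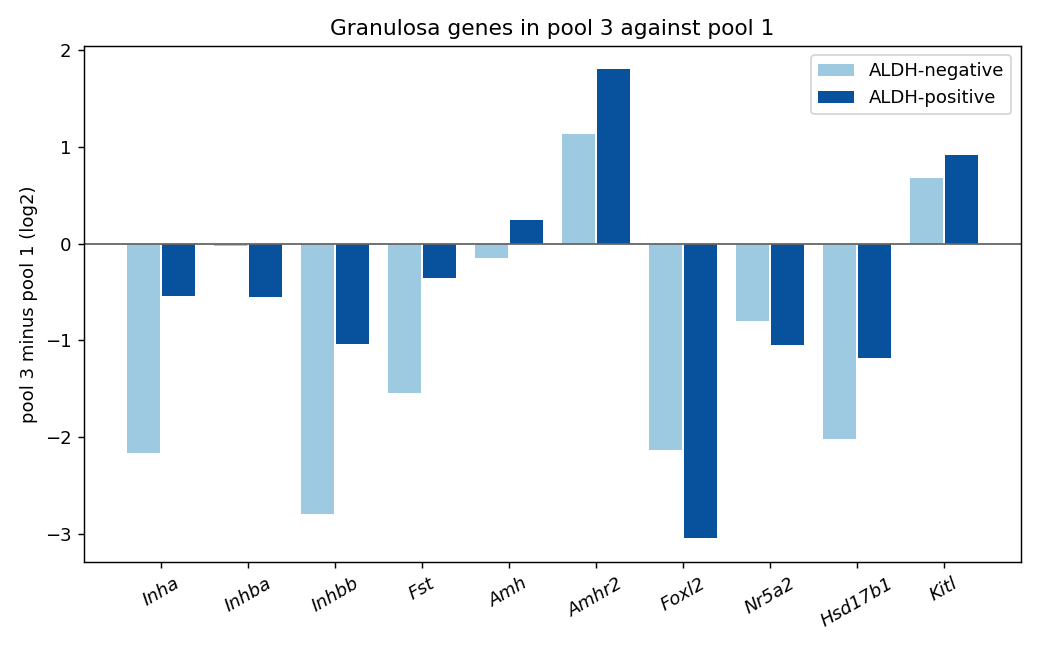
Pool 3 minus pool 1 (vertical axis, log2) for each gene in ALDH-negative (light bars) and ALDH-positive cells (dark bars), 1 array on each side. Foxl2 has -2.13 and -3.04, and Amhr2, read by its brightest probe set, has 1.13 and 1.80.

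The receptors and Smads that carry activin, inhibin and AMH signals were measured on the same arrays. Over all probe sets, limma at an unadjusted p under 0.05 passed 2.04% higher and 0.403% lower. Without replicate 2 these shares were 2.29% and 2.27%. They are the background for the unadjusted counts of this and the following lists. Of the 17 genes listed 16 were tested, and 0 rose and 0 fell by limma (adjusted, background 0%), also without replicate 2; at an unadjusted p under 0.05 0 passed with all pools and 1 without replicate 2, Bmpr1b. Their median difference was -0.44, and 0.13 without replicate 2. The type II activin receptors Acvr2a and Acvr2b gave -0.68 (SE 0.75) and -0.87 (SE 0.82); leaving out replicate 2 gave 0.10 and 0.12. Acvr1b, the type I activin receptor, gave 0.73 (SE 0.66) and 0.35. Tgfbr3, the betaglycan that helps inhibin bind, gave 0.32 (SE 0.75) and -0.45. Bmpr1a, a type I receptor used by AMH, gave 1.45 (SE 0.75) and 0.66. Bmpr1b, another type I receptor of this family, named after its values were seen, went the other way, at -1.51, -1.13 and -0.74 in the pools, with a mean of -1.13 (SE 0.64) and -1.12 without replicate 2 (limma unadjusted p = 0.0429, adjusted p = 0.909). For the activin effectors Smad2 and Smad3 the values were -1.64 (SE 0.73) and -0.19 (SE 0.80), and -0.95 and 0.74 without replicate 2. The inhibitory Smad7 gave -0.94 (SE 0.85) and 0.15.

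Among 8 other ligands, antagonists and convertases 5 were tested and 0 rose or fell by limma, and 0 passed at an unadjusted p under 0.05. Their median was -0.24, and -0.17 without replicate 2. Without replicate 2, 2 passed at an unadjusted p under 0.05, Bambi higher and Pcsk5 lower. The decoy receptor Bambi differed by 1.53 (SE 0.68) and by 1.28 without replicate 2, with 4.63, 4.32 and 4.70 in ALDH-positive against 4.10, 2.30 and 2.66 in ALDH-negative cells. Bambi was therefore higher in each pool, and its fractions did not overlap (3.55% of all tested genes lie wholly above in this way). This was also so for other genes named here, among them Gata4, Sox9 and Ptgs2. Smad2 and Bmpr1b lay wholly below, as 3.32% of all tested genes do. The follistatin-like antagonist Fstl3 gave -0.18 (SE 0.66) and Furin, a convertase that cleaves precursors of this family, -0.98 (SE 0.75), or -0.17 and -0.24 without replicate 2. Pcsk5, also a convertase and named after its values were seen, gave -1.05 (SE 0.65) and -1.13 without replicate 2, and was lower in each pool.

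Of 15 other granulosa genes listed 10 were tested, with 0 up and 0 down by limma (0 at an unadjusted p under 0.05, and 2 lower without replicate 2, Nr5a1 and Dhh), and a median of -0.54, or -0.12 without replicate 2. The receptor of follicle-stimulating hormone, Fshr, was below the filter in the mean, between 1.89 and 3.19 outside the array that stood apart. Cyp19a1, the aromatase, and Lhcgr were not analysed here. Esr2, the estrogen receptor of granulosa cells, differed by -0.88 (SE 0.73), the transcription factor Gata4 by 1.50 (SE 0.79) and the gap junction gene Gja1 by -0.88 (SE 0.68). Without replicate 2 these were -0.17, 0.62 and -0.51. Dhh, a hedgehog ligand named after its values were seen, differed by -1.36 (SE 0.68), or -1.37 without replicate 2. Of genes of the testicular counterpart, Sertoli cells, which Foxl2 is known to hold down in the ovary, Dmrt1 was below the filter and Sox9 differed by 1.08 (SE 0.65), or 1.24 without replicate 2. Of the 6 Sertoli genes 3 were tested (median -0.30, and 0.62 without replicate 2) and 0 passed, also at an unadjusted p under 0.05. Without replicate 2, 2 of the 3 passed at an unadjusted p under 0.05 in opposite directions, Sox9 higher and Ptgds lower. Ptgds, a prostaglandin D synthase named after its values were seen, differed by -1.82 (SE 0.85), or -2.83 without replicate 2 (limma unadjusted p = 0.00200, adjusted p = 0.631), and Sox8, the other tested gene, by -0.30 (SE 0.86), or 0.62. Of 9 genes of the ovulatory response 4 were tested (median 0.57, and 0.83 without replicate 2) and 0 passed after adjustment. At an unadjusted p under 0.05 Ptgs2 passed with and without replicate 2; this prostaglandin synthase, named after its values were seen, differed by 2.70 (SE 0.82), or 1.84.

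Marker lists of other cells of the ovary were read on the same arrays. The mean signal of 14 surface epithelium genes was 3.54 to 3.80 in ALDH-negative and 6.93 to 7.46 in ALDH-positive cells. Krt19, Msln and Bnc1 are among them. All 14 were higher in the mean and 0 passed the threshold over all probe sets. By unadjusted p under 0.05 all 14 passed, against 2.04% of all probe sets higher. Without replicate 2, 13 passed, against 2.29%. Cdh1, named after its values were seen, then gave 1.42 (limma unadjusted p = 0.0921). The 14 include Aldh1a2, the gene of an aldehyde dehydrogenase, which differed by 5.17. The cells were sorted by the activity of such enzymes, so Aldh1a2 is not independent of the sort. Krt19, an epithelial keratin, read 8.89, 9.10 and 6.19 on the ALDH-positive arrays and 3.90, 3.02 and 2.64 on the ALDH-negative ones. Bnc1, an epithelial transcription factor, lay below the filter level in ALDH-negative cells, at 1.47 to 1.94. The mean of 6 stroma genes was 3.74 to 5.11 in ALDH-negative and 6.28 to 6.52 in ALDH-positive cells. All 6 were higher in the mean (median 1.87, and 2.24 without replicate 2), and 0 passed after adjustment. At an unadjusted p under 0.05, 4 of the 6 passed with and without replicate 2, all higher. The shares of all probe sets were 2.04% and 2.29%. The mean of the 10 granulosa members was 6.70, 4.30 and 5.71 on the ALDH-negative arrays against 6.41, 6.07 and 5.93 on the ALDH-positive ones. The part of the cell mixture in the member differences was not tested.

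Steroidogenic genes, like the granulosa members, had their lowest mean on the array that stood apart. Their mean over 7 tested genes was 9.01, 5.28 and 8.81 on the ALDH-negative arrays against 8.23, 8.69 and 8.49 on the ALDH-positive ones. By limma 0 of the 7 rose or fell, and 0 passed at an unadjusted p under 0.05; without replicate 2, 1 did, Star, in the lower direction. Their median difference was 0.71, and -0.39 without replicate 2, with 6 of 7 lower. Cyp11a1, which starts steroid synthesis, gave -0.94 and Star, which carries cholesterol into mitochondria, -1.06 without replicate 2, against 1.57 and 0.54 with it. Oocyte markers were dim: 2 of 12 were tested, Kit stayed between 1.04 and 1.45 on the 6 arrays, and Zp3 between 1.07 and 2.83. Gdf9, an oocyte ligand, read 2.77 to 3.39 outside the array that stood apart and 4.73 on it. The mean of 4 leukocyte genes was 3.02 to 4.29 and 2.58 to 4.22, and that of 3 endothelial genes 2.98 to 3.79 and 3.12 to 3.95.

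**Figure D5:**
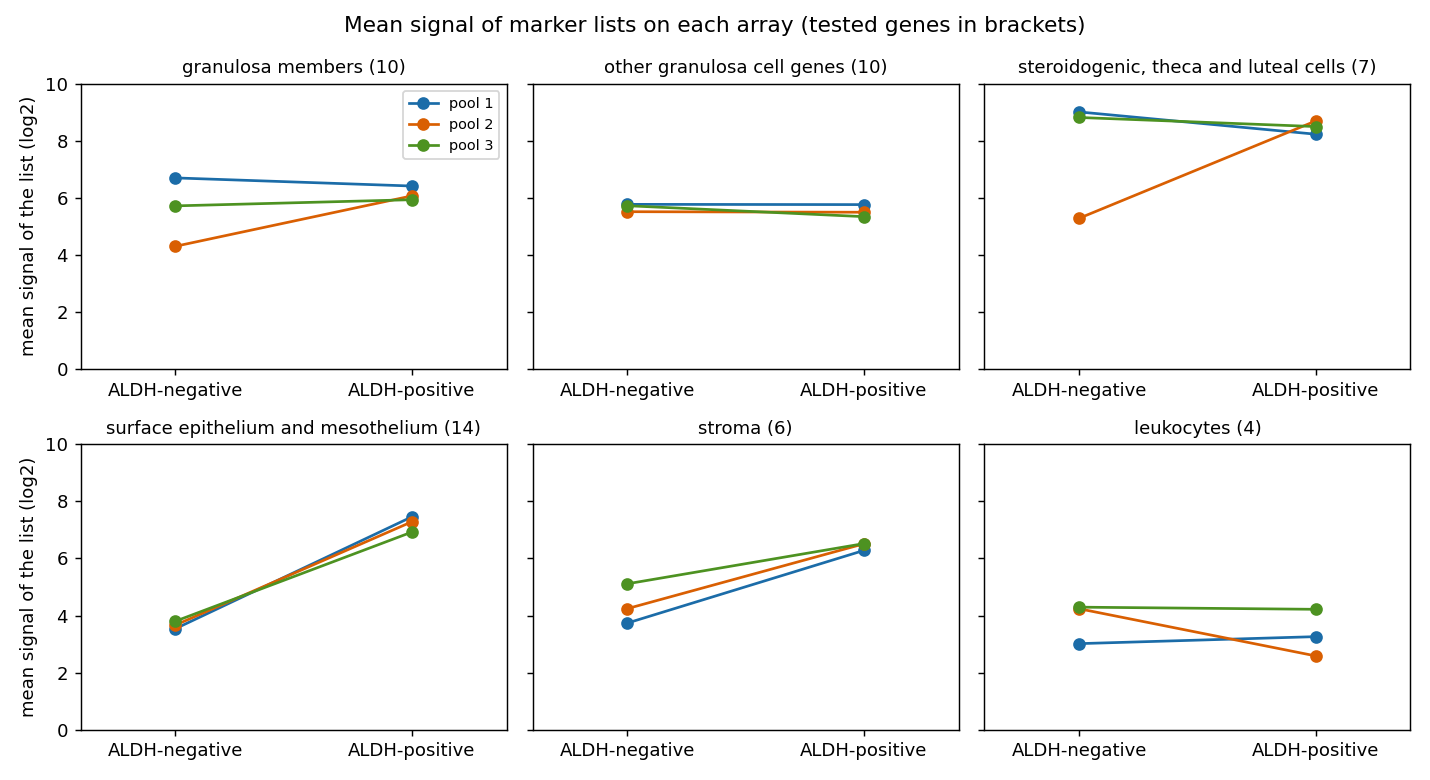
Mean log2 signal of the tested genes of 6 marker lists (vertical axis) in ALDH-negative and ALDH-positive cells, 1 line per pool. The surface epithelium list lies at 3.54 to 3.80 in ALDH-negative and 6.93 to 7.46 in ALDH-positive cells, while the granulosa members read 5.71 to 6.70 on 5 arrays and 4.30 on the ALDH-negative array of pool 2.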

How the data were processed

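The samples were 6 arrays, 3 of each sorted fraction. The deposited values, 1 for each of 45101 probe sets per array, were taken as log2 signal from their range of 0.035 to 13.06; how the authors summarised and normalized them is not given in the sources used here. GeneSifter and a paired SAM analysis are named in the series design. After removal of 64 control probe sets, array medians differed by 0.46, over the limit of 0.2, so the arrays were quantile normalized. The lower 40% of probe sets by mean were removed (log2 level 2.73), which left 27022.

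Gene symbols came from the platform annotation of GEO, updated by Entrez identifier through the RefSeq table of GRCm38.p6. Of the 45037 left, 34945 had 1 symbol (34741 of them matched by identifier, with no change of symbol), 932 had several and 9160 had none. Where 1 value per gene was needed, the tested single-symbol probe set of highest mean was used (12814 genes).

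Fractions were compared with limma 3.58.1 (lmFit and eBayes) in R 4.3.3, with the pool as a block, two-sided, with Benjamini-Hochberg adjustment over all 27022 probe sets at 0.05. The code was tested on simulated data. The pairing is that of the series design, in which each pool gave both fractions; across probe sets, the deviations from the group means of the 2 arrays of a pool had correlations of 0.38, -0.19 and 0.35 in pools 1 to 3. Named genes are all members by all their single-symbol probe sets, a set of list genes named whatever their values, and any list gene past the threshold (none was). Ptgs2, Ptgds, Sox8, Bmpr1b, Pcsk5, Dhh and Cdh1 were named outside this rule, after their values were seen. Aldh1a2 was also named outside this rule. The alternatives were other scalings and filters, no block, array weights, another prior, the mean over probe sets, and leaving out replicates or an array. The members, the lists and the tests were chosen with earlier results of these data known.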

Additional observations from a re-analysis of the deposited data

How the results depend on the processing

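In 98 of 129 recomputed member differences the direction and the side of the threshold were kept, 30 changed sign and 1 newly passed. The other filters, the fit with no replicate block and the other prior cannot alter a difference, so they kept its direction by construction. Their kept directions are counted among the 98 and are no sign of stability. Leaving out 1 replicate at a time gave 2 to 3 genes higher and 1 to 3 lower in all remaining pools (1 and 1 with all). Without replicate 2 these were 3 and 3 of 10, against 27.8% and 25.7% of all tested genes. With all 3 pools the shares of all tested genes were 11.3% and 11.4%. Shares for the other settings are not given here. Leaving out replicates also gave differences from -0.078 to 2.29 for Inha, -0.087 to 2.03 for Inhba, -0.39 to 0.21 for Fst, -0.34 to 0.36 for Amh, -0.73 to 1.19 for Foxl2, -1.06 to 2.18 for Nr5a2 and -0.13 to 0.44 for Kitl. Without the ALDH-negative array of replicate 2 and with no replicate block, Inha gave -0.22, Inhba -0.16, Amh 0.24, Amhr2 -0.082, Foxl2 -0.33 and Nr5a2 -0.97. With quantile normalization anew after replicate 2 was left out, chosen after seeing the data, Inha gave -0.047, Inhba -0.088, Fst 0.13, Amh 0.38, Foxl2 -0.78 and Nr5a2 -1.11. In the values as deposited Fst gave 0.16, 2 genes were higher and 0 lower in all pools; with centred medians Fst gave 0.33, Amh 0.068 and 0 genes were lower in all pools, while the median of all tested probe sets moved from -0.04 to 0.22. The mean over probe sets gave Fst 0.15. Array weights gave Inhba -0.14, Fst 0.45, Amh 0.45, Foxl2 -0.90 and Nr5a2 -0.97, and 1 member higher past the threshold by its brightest probe set (Inhbb), with 1478 probe sets higher and 1475 lower over all, against 0 and 0; without replicate 1 these were 4 and 3. The cause was not tested. The fit with no replicate block leaves each difference as it was (Inhbb 1.50), because each pool gave both fractions. It changed the SE, for Inha from 0.96 to 1.22. With and without the block 0 of all tested probe sets were called, so the calls cannot show what the pairing did. No detection calls were used, so that values near the filter level of 2.73 may be background.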
